A study of Homo sapiens with 8 samples.

Results

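The mRNAs described here encode the proteins of the large, 60S subunit of the cytosolic ribosome. They were chosen by name: a gene was a member if its symbol was RPL followed by a number or by P0 to P2, with at most a paralog suffix after it, a rule that uses no measured value. This gave 50 genes of the 26902 genes and RNAs in the expression table. Of these, 47 were tested because their TPM averaged 1 or more across the 8 libraries, and the other 3, RPL3L, RPL10L and RPL39L, were too low. TPM is a share of a library corrected for transcript length, so levels of different genes can be compared where reads come from whole transcripts.

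The cells were U2OS, an established human osteosarcoma line, with an empty vector as control or with overexpressed QKI7, 1 of the isoforms of QKI, which binds RNA. All of them, the vector controls included, had received 0.5 mM sodium arsenite (NaAsO2) for 1 h, so every value below is from stressed cells and no comparison bears on arsenite itself. Each construct gave 2 libraries of input RNA, depleted of ribosomal RNA, and 2 libraries of ribosome footprints, the fragments of 17 to 34 nt recovered from pelleted ribosomes. Footprints come mostly from the coding part of an mRNA, so their TPM also depends on how much of a transcript is coding. The study's title asks how QKI7 affects translation efficiency, which is the change in footprints beyond the change in input RNA. The labels do not tell separate cultures from repeat libraries of 1 culture. The p-values therefore measure the spread between libraries only, and that spread may be technical.

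The large subunit joins amino acids at its peptidyl transferase centre, which is made of ribosomal RNA, and its proteins fold and hold that RNA, receive translation factors and line the tunnel through which the new chain leaves. Most of these proteins are held in equal numbers by the ribosome and come from single-copy genes scattered over the genome that have left many processed pseudogenes. Their mRNAs are classic TOP mRNAs: the transcript opens with a C and an unbroken run of pyrimidines, the 5′ terminal oligopyrimidine tract, through which mTOR signalling, LARP1 and, under stress, the stress granule proteins TIA1 and TIAL1 are known to hold their translation.

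The start sites show how closely the members share this opening and where they differ. Sequences were taken from the RefSeq annotation of GRCh38.p14, which held a start for 40 of the 50 members; RPL3L, RPL5, RPL7, RPL8, RPL23, RPL23A, RPL30, RPL37 and RPL39L were among those that had none there. The motif searched was a C at the annotated start base followed by C or T without a break, with a run of at least 5 bases, on the gene's own strand only. It stood at a start of 28 of the 40 members (70.0%), at 17 of 25 small-subunit ribosomal protein genes (68.0%) and at 988 of 15843 protein-coding genes with a start sequence (6.24%). The sequences below belong to members that the results turn on by a large change in RNA, footprints or their ratio, with RPL4 as an abundant mRNA that was not called and RPL36AL as the near copy of RPL36A. Each gives 10 bases before the start and the first 18 bases of the transcript, 5′ to 3′, with the run of C or T from the start base in capitals.
RPL35 (chr9:124861940-124861967, minus strand): cgcctacttcCTCTTTCCCTCggagcgg
RPL38 (chr17:74203668-74203695, plus strand): aagtctcgttCTTTTTCgtccttttccc
RPL36A (chrX:101391001-101391028, plus strand): ctcgcggtttCTTTCTTTCCgcgccgat
RPL35A (chr3:197950180-197950207, plus strand): gggcctcgtcCTTCTCTTaccgccatct
RPL11 (chr1:23691796-23691823, plus strand): gctccgctttCTCTTCCTgctctccatc
RPL24 (chr3:101686701-101686728, minus strand): atgattctctCTTTCTTTTCgccatctt
RPL29 (chr3:51995878-51995905, minus strand): cagcccctttCTCTTCCggttctaggcg
RPL34 (chr4:108620566-108620593, plus strand): cttttttcttCCTCTTCCggggacgttg
RPL21 (chr13:27251548-27251575, plus strand): ccgcctctttCCTTTCggccggaaccgc
RPL13A (chr19:49487598-49487625, plus strand): aaacctcctcCTTTTCCaagcggctgcc
RPL19 (chr17:39200313-39200340, plus strand): agctctttccTTTCgctgctgcggccgc
RPL36AL (chr14:49620609-49620636, minus strand): tcttccctttCCTgttaggcgagagctg
RPL27 (chr17:42998409-42998436, plus strand): gtgaaaggttagcggaagtgtccttctt
RPL4 (chr15:66504838-66504865, minus strand): cgggagtggtaagcacttccttttcctg
The first 10 of these carried the motif. RPL19 and RPL36AL had shorter runs at the annotated base, and RPL27 and RPL4 opened with a purine there. A missing match says only that these letters are not at the annotated base; the start used in U2OS was not measured.

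The construct was checked first. QKI stood at 3.01 and 3.45 TPM in vector inputs and at 1748.86 and 1579.91 TPM in QKI7 inputs, and at 0.57 and 0.66 TPM in vector footprints against 27.0 and 28.06 TPM in QKI7 footprints. Protein-coding mRNA was a small part of all TPM, with a mean of 3.87% in vector inputs, 4.39% in QKI7 inputs, 0.710% in vector footprints and 0.691% in QKI7 footprints. Residual 28S and 18S ribosomal RNA was higher in QKI7 inputs, at 441.8 and 978.55 TPM against 250.17 and 269.06 TPM in vector inputs. In footprints it was far higher, at 428856.37 and 430089.99 TPM with the vector and 449702.8 and 445437.03 TPM with QKI7. These were means of 42.9% and 44.8% of all footprint TPM. Of 8 mesenchymal markers 6 had a mean input of at least 1 TPM, with summed levels of 126.59 to 143.85 TPM per input; COL1A2 and RUNX2, the latter a transcription factor of the bone lineage, stayed below it. None of the 7 epithelial, 6 blood and 6 neural markers reached that mean, and their sums per input ran from 0.34 to 0.86, from 0.18 to 0.85 and from 1.5 to 1.7 TPM. Over the members tested, the 2 libraries of a group correlated at Pearson r = 0.995 to 0.997 across genes.

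In vector inputs the members spread over more than 2 orders of magnitude. RPL19 was highest, at 218.7 and 252.1 TPM, followed by RPL38 at 200.74 and 226.26 TPM, RPL35 at 164.57 and 184.99 TPM, RPL4 at 165.77 and 181.05 TPM and RPL23A at 142.9 and 153.44 TPM. RPL19 lies at the tunnel exit and reaches over to the small subunit, and RPL38 is known from mouse mutants in which the axial skeleton is mispatterned. The 2 libraries of RPL19 and RPL38 interleaved, as did those of RPL35 and RPL4. These 5 genes held 57.1% of the summed TPM of all members, while the median tested member had 14.8 TPM and the lowest, RPL15, 0.69 and 0.76 TPM. Footprints were more even. RPL38 led there, at 122.86 and 120.12 TPM in vector cells, the median was 13.9 TPM, and the 5 highest members, RPL38, RPL24, RPL23, RPL27 and RPLP2, held 34.3% of the sum. Across the 47 members, input and footprint levels were loosely related, with Pearson r = 0.41 and Spearman rho = 0.38 for vector and 0.45 and 0.43 for QKI7 on the log2 scale. The 4 paralogs in the list differed widely. RPL36AL, a retroposed near copy of RPL36A, had 18.56 and 19.92 TPM in vector inputs against 3.64 and 2.46 TPM for its parent. RPL10L, known as a testis form of RPL10, had 0.69 and 1.12 TPM and RPL39L, likewise a germline form, 0.58 and 0.68 TPM. RPL3L, the form of striated muscle, had 0.01 and 0.03 TPM in vector inputs and was listed at 0 in all 4 footprint libraries. Reads shared with these near copies or with pseudogenes may have been split between entries in ways the sources used here do not give, so the level of any single member is uncertain to that extent. The number of pseudogenes in RefSeq was weakly related to vector inputs (Pearson r = -0.22, Spearman rho = -0.28 across the 47 genes). For vector footprints the values were -0.09 and -0.11. Whether shared reads have a part in this was not tested.

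**Figure D1:**
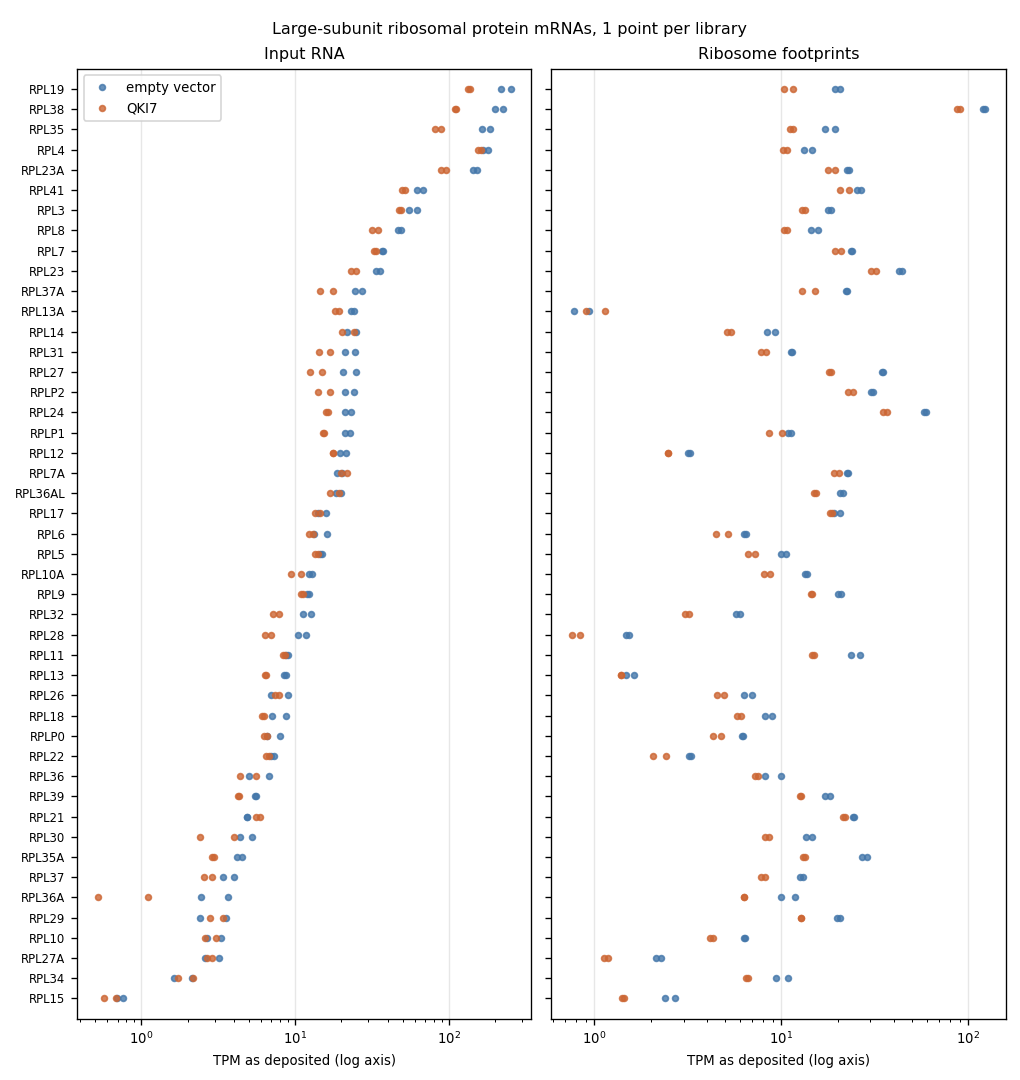
Level of the tested large-subunit genes, 1 left out, in every library (TPM, log axis), inputs and footprints in separate panels, with vector libraries in blue and QKI7 libraries in orange. RPL19 tops the vector inputs and RPL38 the footprints, and the QKI7 libraries lie to the left of the vector libraries for most genes.

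QKI7 inputs held less large-subunit mRNA than vector inputs. The members summed to 1575.13 and 1732.95 TPM in vector inputs and to 1170.17 and 1109.91 TPM in QKI7 inputs, so the groups did not overlap and the ratio of means was 0.689. As a share of protein-coding TPM, they went from 4.27% ± 0.072 to 2.60% ± 0.020 (SD, n = 2 each), a ratio of 0.609. Removing QKI itself and RELN, a second protein-coding entry that was much higher in QKI7 footprints, from the protein-coding sum left 4.27% and 2.70%. RELN stood at 0.02 and 0.04 TPM in vector inputs and at 0.04 and 0.02 TPM in QKI7 inputs. In a bulk library these shares cannot tell less of an mRNA per cell from fewer cells that express it, or from more of other RNA.

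Gene by gene, 27 of the 47 members fell in QKI7 inputs, 1 rose and 19 were not called (limma on log2(TPM + 1), adjusted p under 0.05). Among all 5806 entries tested, 5.48% were called lower and 39.1% higher. The median change of the members was -0.30 on the log2 scale while that of all entries was 0.15, which puts the members 0.46 below the rest. Both QKI7 inputs lay below both vector inputs for 36 members and above them for 1, RPL21; over all entries the groups separated downwards for 11.6% and upwards for 57.8%. On a scale where protein-coding TPM are rescaled to the same sum in each library, called the mRNA scale here, 20 of 49 members tested were called lower and 0 higher in limma (0 higher at an unadjusted p under 0.05 as well), against 0.626% and 0.0351% of 14227 entries.

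The falls in RNA were unequal. RPL35, a protein at the tunnel exit where the signal recognition particle docks, went from 164.57 and 184.99 TPM in vector inputs to 88.89 and 81.13 TPM in QKI7 inputs (log2 change -1.03 ± 0.10 SE, adjusted p = 0.00117). RPL38 went from 200.74 and 226.26 to 110.78 and 110.2 TPM (-0.94 ± 0.10, adjusted p = 0.00117). RPL19 went from 218.7 and 252.1 to 137.28 and 132.3 TPM (-0.80 ± 0.10, adjusted p = 0.00172). In each of these abundant mRNAs the QKI7 libraries lay far outside the range of the vector libraries, and RPL19 was no longer the highest member: RPL4, which was not called, led the QKI7 inputs at 163.05 and 155.29 TPM. RPL36A had the largest change, from 3.64 and 2.46 TPM to 0.52 and 1.1 TPM (-1.17 ± 0.18, adjusted p = 0.00252). Its change of -2.10 on the mRNA scale was not called (adjusted p = 0.10). Its locus is shared with the readthrough entry RPL36A-HNRNPH2, which stood at 6.02 and 7.21 TPM in vector inputs and at 7.67 and 7.69 TPM in QKI7 inputs. Reads from both entries overlap, so the value for RPL36A alone is uncertain. The next largest falls were in RPL27 (-0.69), RPL23A (-0.68), RPL37A (-0.66), RPL28 (-0.65) and RPL32 (-0.61), all with both QKI7 inputs below both vector inputs. RPL27 is mutated in some families with Diamond-Blackfan anaemia, a red cell disorder of ribosome synthesis, and RPL23A is the other docking protein at the tunnel exit.

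RPL21 was the 1 member called higher, at 4.87 and 4.83 TPM in vector inputs and 5.58 and 5.89 TPM in QKI7 inputs (0.20 ± 0.07, adjusted p = 0.0469). Its rise was close to the median shift of all entries and was not called when any 1 of the 8 libraries was left out. The other members with fitted changes above 0 were RPL7A at 0.09, RPL29 at 0.04 and RPL34 at 0.04, and none of these passed the test. Without QKI7 input replicate 2, the library with 978.55 TPM of residual ribosomal RNA, 20 of 47 members were still called lower; the part of that residue in the other results was not tested. Of the 28 members called in either direction, 19 were called in every fit that left out 1 library, among them RPL19, RPL23A, RPL35, RPL36A, RPL38, RPLP1 and RPLP2.

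The members were also grouped by their place in the subunit. The P stalk, made of RPLP0, RPLP1 and RPLP2 on a base that includes RPL12, recruits elongation factors, and the L1 stalk, which holds RPL10A, guides spent tRNA out; 4 of these 5 genes fell in RNA, where 5.48% of all entries were called lower. RPLP1 went from 22.62 and 21.12 to 15.4 and 15.23 TPM (-0.49 ± 0.09, adjusted p = 0.00469) and RPLP2 from 21.1 and 24.33 to 16.98 and 14.13 TPM (-0.52 ± 0.11, adjusted p = 0.00768). The changes of RPL10A (-0.28) and RPL12 (-0.20) also passed the test but lost their calls on the mRNA scale (adjusted p = 0.176 and 0.0577), where 2 of the 5 were called lower, and that of RPLP0, the scaffold that binds both RPLP1 and RPLP2, was -0.15 (adjusted p = 0.202). RPLP0 had 6.6 and 7.92 TPM in vector inputs against 6.57 and 6.24 TPM in QKI7 inputs, with only a narrow gap between the groups.

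RPL5 and RPL11, which carry 5S ribosomal RNA into the subunit and, when unassembled, bind the p53 ligase MDM2, did not pass the test in RNA. RPL5 had 14.45 and 14.96 TPM in vector inputs and 14.11 and 13.45 TPM in QKI7 inputs, and RPL11 had 8.74 and 8.93 against 8.34 and 8.63 TPM. Both pairs of libraries were separated, but by little, with changes of -0.09 and -0.05. Near the catalytic centre, RPL8 went from 46.85 and 48.53 to 34.66 and 31.46 TPM (-0.52 ± 0.09, adjusted p = 0.00351) and RPL3 from 55.18 and 62.53 to 49.04 and 47.32 TPM (-0.28 ± 0.09, adjusted p = 0.0371). RPL10, which is added late in assembly and reaches towards the P site, overlapped between groups, at 2.67 and 3.29 against 3.04 and 2.6 TPM. Where 5.48% of all entries were called lower in RNA, 5 of the 9 proteins in or around the exit tunnel fell. Beside RPL35, RPL19 and RPL23A these were RPL31 (-0.53) and RPL39 (-0.30), a short protein inside the tunnel. RPL4 (-0.12) and RPL17 (-0.09), which also line the tunnel, and RPL22 (-0.09) and RPL26 (-0.05) at its exit were not called. RPL17 shares its locus with the readthrough entry RPL17-C18orf32, listed at 0 in all inputs. In footprints that entry stood at 39.46 and 54.88 with the vector and at 16.01 and 22.99 with QKI7 on the mRNA scale. RPL17 itself stood there at 2895.0 and 2677.89 and at 2642.28 and 2679.87. How reads were split between the 2 entries was not tested. Of the paralogs, RPL36AL was the 1 tested, and its change was -0.09 (adjusted p = 0.458), with overlapping libraries.

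These mRNAs also held a smaller share of footprints in QKI7 cells. As for inputs, a share does not give the number of footprints per cell. The members summed to 845.6 and 838.14 TPM in vector footprints and to 581.73 and 595.11 TPM in QKI7 footprints, a ratio of 0.699. As a share of protein-coding TPM they went from 11.9% ± 0.088 to 8.51% ± 0.058 (SD, n = 2 each), a ratio of 0.718. RELN alone took a mean of 1.28% of protein-coding footprint TPM with the vector and 9.22% with QKI7, while nearly absent from inputs. With RELN and QKI left out of the sum, the share of the members had a ratio of 0.784 between QKI7 and vector. RELN stays in the sum behind the mRNA scale, and the source of its footprint reads was not tested.

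Of the 47 members, 31 fell at the footprint level and 0 rose (limma, adjusted p under 0.05; 0 higher at an unadjusted p under 0.05), against 4.60% of all entries called lower and 3.60% higher. The median change was -0.46 where that of all entries was 0.01. The filter used the mean over all 8 libraries, so some entries passed it on their inputs. NOP2, for example, had means of 14.7 TPM in vector inputs and 0.31 TPM in vector footprints. Footprints that low can hardly change on log2(TPM + 1), and the shares of all entries at this level, here and below, include such entries. Both QKI7 footprint libraries lay below both vector libraries for 46 members and above them for 0, against 22.4% and 30.4% of all entries; the 1 with overlap was RPL13A, a protein known to leave the ribosome under interferon-gamma, with 0.94 and 0.78 against 0.9 and 1.14 TPM. On the mRNA scale 37 of 49 members were called lower and 0 higher (0 higher at an unadjusted p under 0.05), against 4.37% and 9.40% of all entries. Fewer members passed with a footprint library left out: 16 without vector footprint replicate 1, 16 without vector footprint replicate 2, 16 without QKI7 footprint replicate 1 and 19 without QKI7 footprint replicate 2. In all 8 fits that left out a library, 13 of the 31 were called: RPL5, RPL9, RPL10A, RPL11, RPL15, RPL19, RPL24, RPL27, RPL27A, RPL32, RPL35A, RPL37 and RPL39. With no filter on low values, 8 members were called lower.

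RPL35A had the largest fall in footprints, from 28.63 and 27.13 TPM in vector cells to 13.09 and 13.38 TPM with QKI7 (log2 change -1.02 ± 0.07 SE, adjusted p = 0.000221). RPL27 went from 34.88 and 34.55 to 17.96 and 18.42 TPM (-0.90 ± 0.12, adjusted p = 0.00374), and RPL19 from 19.42 and 20.57 to 11.5 and 10.33 TPM (-0.82 ± 0.10, adjusted p = 0.00338). RPL35A, like RPL5 and RPL11, is a Diamond-Blackfan anaemia gene. RPL11 went from 23.47 and 26.24 to 14.65 and 15.03 TPM (-0.70 ± 0.08, adjusted p = 0.00201) and RPL24, which forms a bridge to the small subunit, from 59.74 and 57.67 to 35.18 and 36.62 TPM (-0.69 ± 0.08, adjusted p = 0.00255). In each of these the replicate libraries lay close together and the groups far apart. The rest of the 10 largest were RPL32 (-0.73), RPL30 (-0.68), RPL14 (-0.65), RPL37A (-0.64) and RPL10A (-0.63). RPL38, the member with most footprints, went from 122.86 and 120.12 to 87.5 and 90.33 TPM (-0.45 ± 0.10, adjusted p = 0.027).

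The structural groups were described in footprints in the same way. Over all entries, 4.60% were called lower at this level, and 4.37% on the mRNA scale. Both 5S RNA-binding proteins fell: beside RPL11, RPL5 went from 9.99 and 10.66 to 6.61 and 7.19 TPM (-0.52 ± 0.08, adjusted p = 0.00581). All 3 genes of the catalytic centre fell, RPL10 from 6.34 and 6.43 to 4.14 and 4.3 TPM (-0.50 ± 0.09, adjusted p = 0.0134), RPL8 by 0.47 and RPL3 by 0.43 on the log2 scale. Of the 5 stalk genes, RPL10A and RPLP0 (-0.37, adjusted p = 0.0451) fell, and RPL12 (-0.27), RPLP1 (-0.23) and RPLP2 (-0.37) did not pass the test. On the mRNA scale 4 of the 5 were called lower, RPL12 (adjusted p = 0.0231) and RPLP2 (adjusted p = 0.0295) among them, so the count of stalk genes lower in RNA against footprints turned round with the scale. RPLP1 had 10.91 and 11.26 TPM in vector footprints and 10.07 and 8.61 TPM in QKI7 footprints, with a wide gap between its own QKI7 libraries. Of the 9 tunnel genes, RPL19, RPL35 (-0.63), RPL31 (-0.45), RPL39 (-0.45) and RPL22 (-0.40) fell, and RPL4 (-0.38), RPL17 (-0.10), RPL23A (-0.27) and RPL26 (-0.42) did not pass; on the mRNA scale 8 of the 9 were called lower, all but RPL17. RPL36AL fell from 21.27 and 20.58 to 15.01 and 15.41 TPM (-0.44, adjusted p = 0.0238), while its parent RPL36A, at 10 and 11.77 against 6.28 and 6.29 TPM, had the larger change of -0.70 but a wider error and missed the threshold (adjusted p = 0.051).

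**Figure D2:**
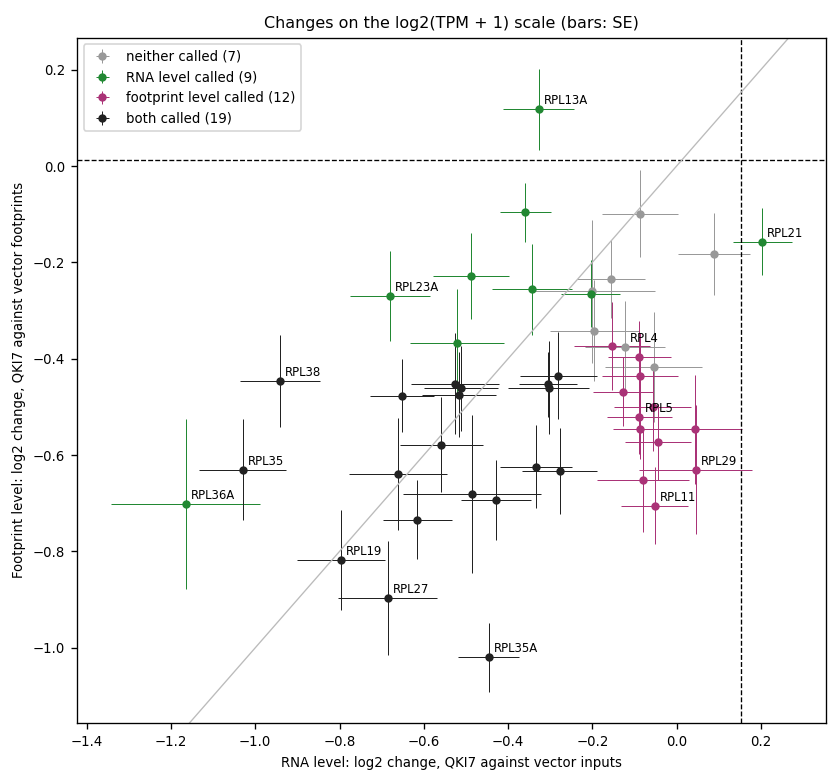
Log2 change of each tested large-subunit gene between vector and QKI7 cells, input RNA on the horizontal axis and footprints on the vertical axis, both on the log2(TPM + 1) scale, with colours for what passed the test, bars for the standard error, dashed lines at the medians of all entries and a grey line where both changes are equal. Most genes lie below 0 on both axes, with RPL36A and RPL35 furthest left and RPL35A and RPL27 lowest.

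The members called in RNA and those called in footprints overlapped only in part. Across the 47 members the changes at both levels were loosely related (Pearson r = 0.34, Spearman rho = 0.27; the levels rest on separate libraries, and genes are not independent of each other). A total of 19 members fell at both levels, among them RPL19, RPL27, RPL32, RPL35, RPL35A and RPL38. Another 8 fell in RNA only: RPL12, RPL13, RPL13A, RPL23A, RPL36A, RPL41, RPLP1 and RPLP2. A further 12 fell in footprints only: RPL5, RPL9, RPL10, RPL11, RPL14, RPL15, RPL22, RPL27A, RPL29, RPL34, RPL36AL and RPLP0. Of the RNA-only genes RPLP1 alone had that pattern of calls on the mRNA scale, while the footprint-only genes other than RPL34 had theirs. For RPL4, RPL6, RPL7, RPL7A, RPL17, RPL26 and RPL36 neither level passed. These classes come from a threshold at each level; whether the 2 levels differ for a gene is what the test of translation efficiency asks.

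Translation efficiency differed between the constructs for 13 of the 47 members, lower in QKI7 cells for 11 and higher for 2. This is a split near that of the whole table, where 21.6% of entries were called lower and 3.57% higher. The median change of the members, -0.15, was close to that of all entries, -0.16. Entries with footprints far below 1 TPM can hardly change in footprints on log2(TPM + 1), whatever their RNA does. The match therefore does not show that the members behaved like other mRNAs with measurable footprints. The split also depended on the scale. On the mRNA scale 0 members were called lower in limma (6 at an unadjusted p under 0.05) and 3 higher, with 0.260% and 1.29% of all entries. Leaving out 1 library changed the count too: 2 members were lower without vector footprint replicate 2, without QKI7 footprint replicate 1 or without QKI7 footprint replicate 2, 3 without vector footprint replicate 1, and 4 without vector input replicate 1 or QKI7 input replicate 1, where the count higher was 0 or 1.

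RPL29 had the lowest value. Its inputs overlapped, at 2.42 and 3.56 TPM for vector and 3.39 and 2.78 TPM for QKI7, while its footprints went from 20.58 and 19.96 to 12.81 and 12.67 TPM, a change in efficiency of -0.68 ± 0.19 (adjusted p = 0.0374). RPL11 followed at -0.65 ± 0.11 (adjusted p = 0.0117) and RPL34 at -0.59 ± 0.16 (adjusted p = 0.0337), neither of them called in RNA. RPL35A differed from these in that its RNA fell as well, from 4.17 and 4.53 to 2.88 and 2.97 TPM, and its efficiency was -0.57 ± 0.10 (adjusted p = 0.0122). RPL11 and RPL35A were the 2 members called in all 8 fits that left out a library. The other members called lower were RPL14 (-0.57), RPL27A (-0.53), RPL15 (-0.46), RPL10 (-0.44), RPL5 (-0.43), RPL21 (-0.36) and RPL9 (-0.34). On the mRNA scale all of these kept values below 0, with RPL29 at -0.52, RPL11 at -0.47 and RPL35A at -0.29, and none passed.

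RPL38 and RPL13A were higher. For RPL38, input RNA fell more than footprints did, which gave 0.50 ± 0.13 (adjusted p = 0.0339), and on the mRNA scale it was again called, at 0.72 (adjusted p = 0.00918). RPL13A had 24.21 and 23.19 TPM in vector inputs against 19.27 and 18.11 TPM in QKI7 inputs, with footprints near 1 TPM in all 4 libraries (0.45 ± 0.12, adjusted p = 0.033), and on the mRNA scale its value of 0.80 was not called (adjusted p = 0.109). The tunnel exit proteins RPL23A and RPL35 had values of 0.41 and 0.40 that missed the threshold (adjusted p = 0.0552 and 0.0783) and passed on the mRNA scale, at 0.62 (adjusted p = 0.0145) and 0.58 (adjusted p = 0.0354). Of the structural groups, both 5S RNA-binding proteins and RPL10 were called lower, and none of the 5 stalk and 9 tunnel genes was called on the deposited scale.

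**Figure D3:**
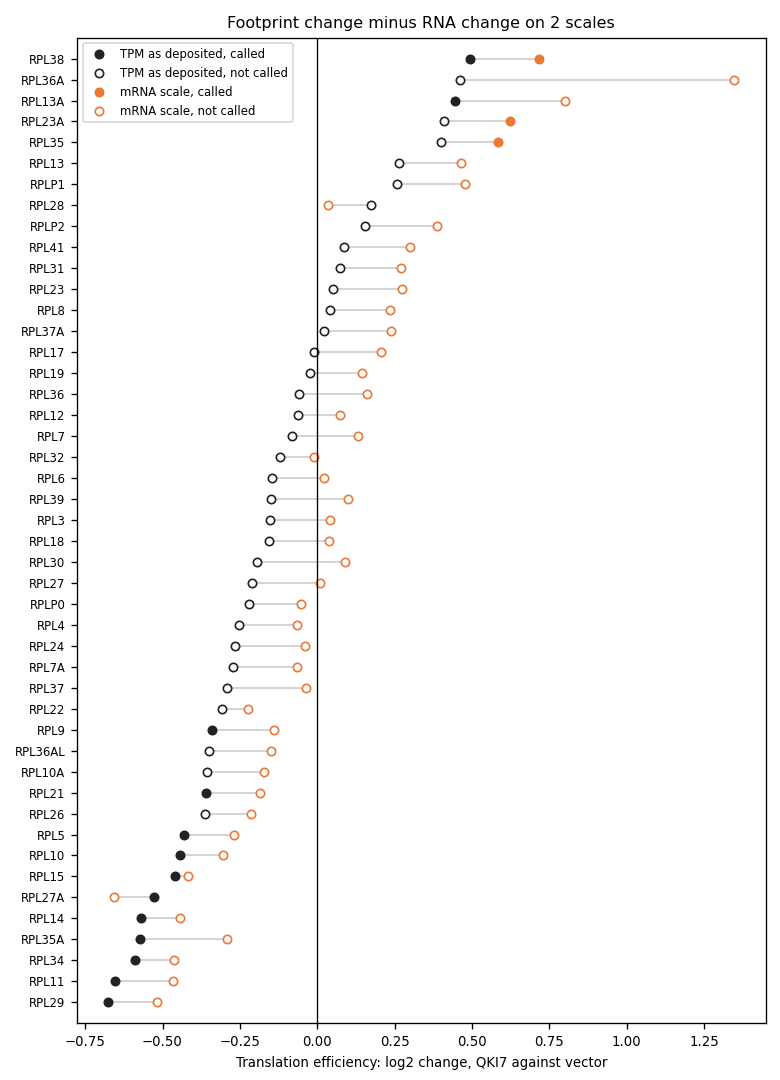
Change in translation efficiency of the tested large-subunit genes, 1 left out (change in footprints minus change in inputs, log2 scale), in black on the deposited scale and in orange on the mRNA scale, filled where the gene passed the test. On the deposited scale values run from -0.68 for RPL29 to 0.50 for RPL38, and most genes lie further right on the mRNA scale.

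Within each construct, footprints and inputs were compared on the mRNA scale, because mRNA is a different share of each kind of library. The ratio of footprints to inputs also depends on how much of a transcript is coding. That part was not measured, so the ratio is not by itself a measure of ribosome load. In vector cells 40 of 49 members were called higher in footprints than in inputs and 8 lower, with a median log2 ratio of 2.21 against -1.66 over all entries, of which 12% were higher and 63.4% lower. In QKI7 cells 42 were higher and 6 lower, with a median of 2.16 against -1.57 and with 11.4% and 62.2% of all entries. On the deposited TPM, where mRNA is a smaller share of footprints, the counts were 19 higher and 22 lower in vector and 18 higher and 26 lower in QKI7 cells, so the direction for a single member holds relative to other mRNAs only.

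The ratio spread widely among mRNAs whose proteins are mostly held in equal numbers. RPL29 had 64.85 and 88.79 rescaled TPM in vector inputs and 2900.63 and 2808.76 in vector footprints, a ratio of means of 37.2. RPL13A had 648.8 and 578.41 in inputs and 132.49 and 109.76 in footprints, a ratio of 0.197. Beside RPL29 (log2 ratio 5.21), RPL35A (5.11), RPL34 (4.86), RPL21 (4.76) and RPL36A (4.29) stood highest in vector cells, all with input levels under the median member. Beside RPL13A (-2.34), RPL4 (-1.19), RPL19 (-1.11), RPL35 (-0.82) and RPL28 (-0.42) stood lowest, and 3 of these were among the 5 most abundant inputs. An input level enters both the ratio and its order here. The same 5 genes stood highest and the same 5 lowest in QKI7 cells. There RPL36A led at 5.63, over inputs of only 11.49 and 25.91 rescaled TPM, ahead of RPL35A (4.82), RPL29 (4.70), RPL21 (4.57) and RPL34 (4.39), and RPL13A (-1.53), RPL4 (-1.26), RPL19 (-0.96), RPL28 (-0.39) and RPL35 (-0.24) were lowest.

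**Figure D4:**
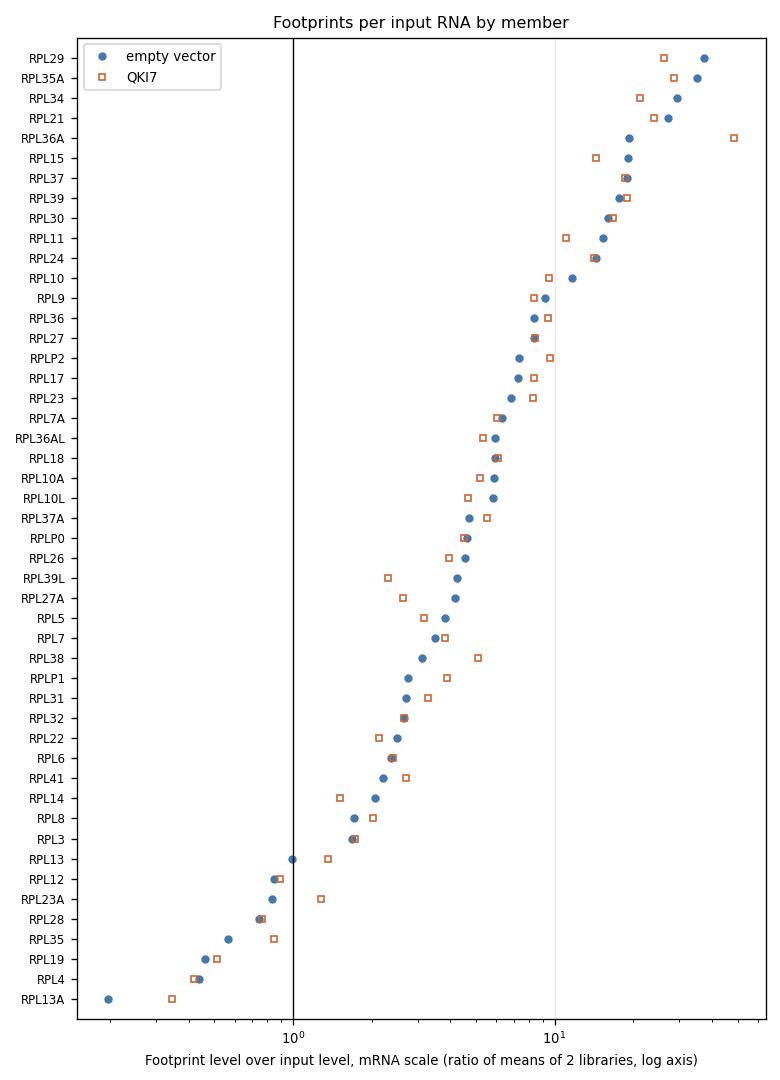
Ratio of mean footprint level to mean input level on the mRNA scale for the large-subunit genes tested there, 1 left out (log axis, means of 2 libraries, filled circles for vector and open squares for QKI7 cells). In vector cells ratios run from 0.197 for RPL13A to 37.2 for RPL29, and the order is similar in QKI7 cells.

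Counted from the annotated base, the run of pyrimidines did not sort the members by their change. This count misses a tract that begins a few bases away, and in RPL19 and RPL36AL the pyrimidines also ran on before that base. The values below therefore cannot tell whether a TOP tract goes with the change. Among the members tested, 28 had the TOP motif; 16 of these fell and 1 rose in RNA (median -0.30) and 17 fell in footprints (median -0.45). Of 11 tested members with a start sequence but no motif, 5 fell in RNA (median -0.20) and 8 in footprints (median -0.47). Over all entries, 5.48% were called lower and 39.1% higher in RNA, and 4.60% lower in footprints. Across the 39 tested members with a start sequence, the length of the pyrimidine run had Pearson r = -0.06 with the change in RNA and 0.10 with the change in footprints (Spearman rho -0.04 and 0.04). RPL35, with a run of 11, and RPL19, with a run of 4, both fell at both levels, and RPL27, without a run at the annotated base, had the second largest fall in footprints.

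The small-subunit ribosomal protein genes moved much as the large-subunit genes did. Among all entries 5.48% were called lower and 39.1% higher in RNA, and 4.60% and 3.60% in footprints. Of the 30 small-subunit genes tested, 18 fell and 0 rose in RNA, with a median of -0.32. In footprints 20 of them fell and 1 rose, with a median of -0.46. Their share of protein-coding TPM went from 1.585% to 0.988% in inputs and from 7.081% to 5.12% in footprints. No test of a difference between the subunits was made. The exception was RPS2, whose footprints rose from 5.18 and 5.58 to 10.38 and 9.49 TPM (0.78 ± 0.08, adjusted p = 0.00125), while no large-subunit gene passed in that direction.

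Other genes of the pathway were described from lists drawn up by function. Of 20 other TOP mRNAs tested, which encode translation factors and related proteins, 4 fell and 1 rose in RNA (median -0.07). Over all entries, 5.48% were called lower and 39.1% higher there. EEF2, the translocation factor, fell by 0.38 on the log2 scale, NPM1 by 0.35 and FAU by 0.35, and TPT1 rose (0.36), a call that was lost on the mRNA scale, where 5 of the 20 were lower and 0 higher. In footprints 11 of these 20 fell and 0 rose in limma, with a median of -0.34, beside 4.60% and 3.60% of all entries. The largest falls were in RACK1 (-0.71), BTF3 (-0.56), EIF3E (-0.49) and EEF1A1 (-0.49). EEF1A1, the factor that delivers tRNA, had 42.45 and 45.87 TPM in vector inputs and 44.49 and 43.84 TPM in QKI7 inputs, so its libraries overlapped in RNA but not in footprints. Of 37 tested factors that assemble the 60S subunit, 5 fell and 3 rose in RNA (median -0.06), beside 5.48% and 39.1% of all entries, and on the mRNA scale 1 of 40 was called lower and 0 higher. At the footprint level 4 of the 37 fell and 0 rose (median -0.12), beside 4.60% and 3.60% of all entries. Those past the threshold were NIFK (-0.50), EIF6 (-0.47), DDX18 (-0.29) and EBNA1BP2 (-0.26). On the mRNA scale 7 of 40 were called lower and 2 higher, beside 4.37% and 9.40% of all entries. EIF6 keeps new large subunits from joining small ones too early. Of 9 tested regulators of TOP mRNAs, TIAL1 (0.38), TIA1 (0.37) and RPS6KB1 (0.24) rose in RNA. This share is below the 39.1% of all entries called higher, the list's median of 0.15 was that of all entries, and 0 of 10 were called higher in RNA on the mRNA scale. In footprints 0 of the 9 passed. Some had very few footprints: RPS6KB1 stood at 8.46 and 8.44 rescaled TPM with the vector, and far lower as deposited. Such values can hardly change on log2(TPM + 1), so this count does not show a lack of change. On the mRNA scale 1 of 10 was called higher in footprints and 0 lower, beside 9.40% and 4.37% of all entries. LARP1 (0.19, adjusted p = 0.0812) and MTOR (0.15, adjusted p = 0.0821) did not pass in RNA.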

How the data were processed

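The authors deposited TPM per gene, rounded to 2 decimals, for 8 libraries. STAR, RSEM 1.2.31 and GRCh38 were used, per the submitters' processing notes. Alignment settings, the annotation and the use of strand are not given in the sources used here. TPM keeps no read depth, so depth is unknown and no counting interval is given. The rule for members uses symbols only, but it, the lists, the tests and the rule for named genes were set with earlier results of these data known.

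Groups came from the sample labels. Entries were fitted with limma 3.58.1 in R 4.3.3 on log2(TPM + 1), a scale that understates changes of low values, if their mean reached 1 TPM (5806 entries). The model had 4 group means, a variance trend in eBayes and 4 residual degrees of freedom. P-values were two-sided and Benjamini-Hochberg adjusted over all entries tested, with 0.05 as the threshold. Exact permutation of 2 against 2 libraries cannot go below 0.333. Translation efficiency was the interaction of library type and construct. On the mRNA scale the 18783 protein-coding entries of each library were rescaled to a common sum, and 14227 were tested. Genes were named as the 10 largest changes per direction past the threshold with separated libraries, the 5 highest and 5 lowest ratios of footprints to inputs, every member of the structural groups, and up to 4 genes past the threshold of each other list. A gene that this rule would name may not be reported here by name; counts, medians and sums include all genes. RefSeq (GRCh38.p14) supplied gene classes and start sequences; all 50 members matched by symbol.

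Same-numbered replicates deviated together little (r = -0.088 between inputs, 0.06 between footprints, 0.008 and 0.125 between inputs and footprints), so numbers were not taken as pairs. On simulated data with 200 changed entries of 5806, a log2 change of 0.5 was recovered for 49.5% in inputs, 49.5% in footprints and 3.5% in translation efficiency, and a change of 1 for 85%, 90.5% and 68.5%. Of the calls, 8.3%, 1% and 12.5% were false at 0.5, and 4.5%, 5.2% and 2.1% at 1. Changed entries were drawn only from those with a mean log2(TPM + 1) of at least 1 in vector footprints, so recovery at lower footprint levels is not covered. Alternatives tried were the pseudocount, the filter, the scaling, the variance trend, the replicate block and each library left out.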

Additional observations from a re-analysis of the deposited data

Results flagged for a closer look

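For 13 members the effect of QKI7 differed between footprints and inputs by the interaction test in limma (adjusted p under 0.05), which is what singles them out here. The difference, as the log2 change in footprints minus that in inputs, was below 0 for 11 of them. It was -0.68 for RPL29, -0.65 for RPL11, -0.59 for RPL34, -0.57 for RPL35A and -0.57 for RPL14. It was -0.53 for RPL27A, -0.46 for RPL15, -0.44 for RPL10, -0.43 for RPL5, -0.36 for RPL21 and -0.34 for RPL9. For RPL38 it was 0.50 and for RPL13A 0.45. Of all entries tested, 21.6% were called below 0 and 3.57% above. Of the 13 members, 1 (RPL38) was also called on the mRNA scale, 1 with a pseudocount of 0.1 and 3 with quantile normalization. No group held enough libraries for a check of single outlying values.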

How the results depend on the processing

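Depth is unknown, and 2 libraries a group limit the precision; the simulation recovered 3.5% of translation efficiency changes of 0.5. Counts not given here stayed within 1.5 times their first value, and for every change below the cause was not tested unless fewer libraries or genes make it. In inputs, 27 members were lower; 17 were with a pseudocount of 0.1 and 41 with median-of-ratios scaling. The 1 higher (RPL21) became 0 with a pseudocount of 0.1, a filter at 5 TPM, the mRNA scale, median-of-ratios scaling, quantile normalization, the replicate block, and inputs scaled to the spike-ins (chosen after seeing the data, 25 lower). In footprints, 31 lower became 8 with no filter. For translation efficiency, 11 lower became 1 with a pseudocount of 0.1, 5 with no filter, 0 on the mRNA scale, 4 with median-of-ratios scaling and 2 with quantile normalization, and 2 higher became 0, 0, 3, 6 and 7, or 5 without the variance trend. Footprints against inputs as deposited gave 22 lower and 19 higher for vector (8 and 40 on the mRNA scale) and 26 and 18 for QKI7 (6 and 42); without the trend 5 and 3 were lower. Signs turned for RPL21 in inputs with median-of-ratios scaling (-0.017, adjusted p = 0.862), and, with quantile normalization, for RPL32 in translation efficiency (0.35, adjusted p = 0.0377) and RPL28 footprints against inputs in QKI7 (0.51, adjusted p = 0.00244).

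Replicate numbers were not shown to pair the libraries. With the replicate block, 21 members were lower and 0 higher in inputs, 22 and 0 in footprints, and 5 and 0 in translation efficiency. With each library left out in turn, members lower numbered 20 to 24 in inputs, 16 to 32 in footprints and 2 to 11 in translation efficiency, and members higher 0 to 0, 0 to 0 and 0 to 1. Footprints against inputs gave 7 to 8 lower and 40 to 40 higher in vector and 4 to 6 lower and 41 to 42 higher in QKI7 cells.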
